A study of Rattus norvegicus with 9 samples.

Results

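The genes described here are 7 that have been proposed as regulators, or hubs, of the gene network that turns on in the female hypothalamus at puberty: Irf2bpl, Nkx2-1, Cux1, Usf2, Yy1, Maf and Cadm1. Members were all probe sets whose platform annotation gives exactly 1 gene symbol, that of a listed gene. The rule found 18 of the 31042 probe sets that are not array controls. There were 3 for Irf2bpl, 1 for Nkx2-1, 2 for Cadm1, 2 for Cux1, 3 for Usf2, 4 for Yy1 and 3 for Maf. Of these, 10 had a mean signal above the 40th percentile of all probe sets and entered the test. The other 8 lay below it.

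Whole hypothalami of normal, untreated female rats were profiled on Affymetrix rat arrays, 1 animal per array, at 3 stages. The stages were juvenile at day 26, which the labels treat as the control, early pubertal at day 29 and late pubertal at day 31, with 3 arrays each. The labels give neither a strain nor the signs by which animals were staged. Since whole tissue was used, fewer cells of a type and less RNA per cell cannot be told apart.

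Puberty begins when neurons that release gonadotropin-releasing hormone (GnRH) are driven harder by other neurons and by glia. Irf2bpl, also called Eap1, is a nuclear RING finger protein, and Nkx2-1, also called TTF-1, is a homeodomain factor; both have been described as activators of the GnRH gene and repressors of the enkephalin gene Penk, and Nkx2-1 also patterns the ventral hypothalamus in the embryo. Cux1, Maf, Yy1 and Usf2 are general DNA-binding factors that the study group placed at the hubs of a network of puberty-related genes. Cadm1, also called SynCAM1, is an adhesion molecule of the immunoglobulin family found at synapses and on astrocytes, and is known outside the brain as a tumor suppressor. A further proposed hub is not analysed here. Some of these genes may have been proposed on these samples, so the direction of a difference is not independent evidence for the proposal.

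The promoter of Irf2bpl is shown, and it is the only one of the members searched that held a core motif of another member. The sequence is the 250 bases before the annotated start of Irf2bpl, chr6:112262265-112262514 on the minus strand of GRCr8, from RefSeq, read 5′ to 3′ along the gene. Capitals mark CAAGTG, a core of the sequence that Nkx2-1 recognises.
Irf2bpl: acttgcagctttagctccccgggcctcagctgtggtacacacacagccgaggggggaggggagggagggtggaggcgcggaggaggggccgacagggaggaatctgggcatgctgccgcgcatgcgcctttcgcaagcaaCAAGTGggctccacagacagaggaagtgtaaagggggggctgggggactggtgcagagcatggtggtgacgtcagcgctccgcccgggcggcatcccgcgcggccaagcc
The match lies 110 to 105 bases before the start, on the strand of the gene. Windows of the same length were searched on both strands for CAAGTG, for CACGTG of Usf2, for CCATNTT of Yy1, for TGCTGAC of Maf and for ATCGAT of Cux1, with overlaps between motifs allowed. Irf2bpl, Nkx2-1, Cux1, Yy1 and Maf had a promoter entry, and the windows of Nkx2-1, Cux1, Yy1 and Maf held none of the 5 motifs. Of 33469 rat promoters, 11.7% held CAAGTG, 5.59% CACGTG, 13.8% CCATNTT, 3.53% TGCTGAC and 0.75% ATCGAT. A match of these letters is a description of the sequence and not a binding site.

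Levels are given as log2(signal + 16) after quantile normalization between arrays, and 3 values of a stage follow the order of its replicates: 1, 2 and 3 for juvenile (day 26), 7, 8 and 10 for early pubertal (day 29) and 12, 14 and 20 for late pubertal animals (day 31). Median signal ran from 79.8 to 122 between arrays before that step, with the lowest value on early pubertal replicate 10 and the highest on late pubertal replicate 20. The 3′ to 5′ ratio of the beta-actin control ran from 2.14 to 3.24, and arrays correlated with each other at r = 0.967 to 0.979 across probe sets. Defining peptides of the hypothalamus were present, with Pmch at a mean log2 level of 12.72, Avp at 11.80, Oxt at 11.77 and Hcrt at 10.25, and 13 of 19 listed hypothalamic markers passed the signal filter. Of these Crh, the corticotropin-releasing hormone gene, had the smallest p, at −0.45 ± 0.19 in early against juvenile animals without overlap (limma adjusted p = 0.994). Markers of neighbouring tissue were present too. Of 10 listed markers of neighbouring brain regions 5 passed the filter, among them Tcf7l2 at 9.58 and Prkcd at 7.99, and so did 3 of 7 pituitary markers, Cga at 10.72, Lhb at 7.25 and Tshb at 7.09. The pituitary hormone genes Gh1 and Prl and the cortical marker Emx1 lay below it. The summed signals of both lists overlapped between stages, at 1636 to 1765, 1424 to 1662 and 1503 to 1763 for the brain regions and 1240 to 2972, 1807 to 2552 and 1577 to 2131 for the pituitary in juvenile, early and late pubertal animals. Summed marker signals of 4 cell types separated some stages without overlap. The summed signal of 6 microglial markers was 1683 to 1777 in juvenile, 1847 to 2090 in early pubertal and 1523 to 1601 in late pubertal animals. The summed signal of 10 vascular and meningeal markers was 5381 to 6093, 5916 to 7707 and 6439 to 6756 in the same order, so that only late pubertal and juvenile arrays did not overlap. Tanycyte markers (3283 to 3638 in juvenile and 3674 to 3919 in late pubertal animals) and choroid plexus markers (3218 to 3704 and 3903 to 4497) were separated between the same stages. These 2 sums are weighted towards their brightest genes, Vim at a mean log2 level of 11.36 and Igf2 at 11.75. The next brightest were Crym at 8.96 and Ttr at 7.78. Taken singly, all 4 of these genes overlapped between those stages. The dimmer tanycyte marker Rax, at 7.12, had the smallest p of its list and did not overlap. It stood at 0.386 ± 0.155 in early and 0.544 ± 0.155 in late against juvenile animals, without overlap in either. Neither Rax difference passed the adjusted test. Higher in late pubertal than in juvenile animals were 5 of 6 tanycyte and 2 of 3 choroid plexus markers, with Folr1 lower at −0.17. Early pubertal replicate 10 had the highest sum of all arrays in the vascular, tanycyte and choroid plexus lists. The part of these in the values below was not tested.

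None of the 10 tested member probe sets differed between stages after adjustment. Over the whole array, limma at a Benjamini-Hochberg adjusted p under 0.05 found 0 of 18625 probe sets (0%) in early pubertal against juvenile animals, in late pubertal against juvenile animals and in late against early pubertal animals, and 0 by the F test over the 3 stages. At an unadjusted limma p under 0.05 there were 831, 772, 971 and 786 probe sets in that order. That is 4.46%, 4.14%, 5.21% and 4.22% of the probe sets tested. Among the 10 members, 1, 0 and 2 reached it in the 3 pairwise comparisons. The stages did not overlap for 1, 1 and 2 of the 10, against 8.3%, 11.4% and 11.3% of all tested probe sets. With 10 probe sets, 1 or 2 without overlap is close to what those shares give.

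In early pubertal animals 3 of 10 member probe sets stood above and 7 below the juvenile mean, with a median log2 difference of −0.10 against −0.001 for all tested probe sets. In late pubertal animals 5 stood above and 5 below the juvenile mean, with a median of 0.01 against −0.001. From early to late puberty the median was 0.07 against 0, with 6 above and 4 below. The comparisons share arrays, so these counts are not independent of each other.

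**Figure D1:**
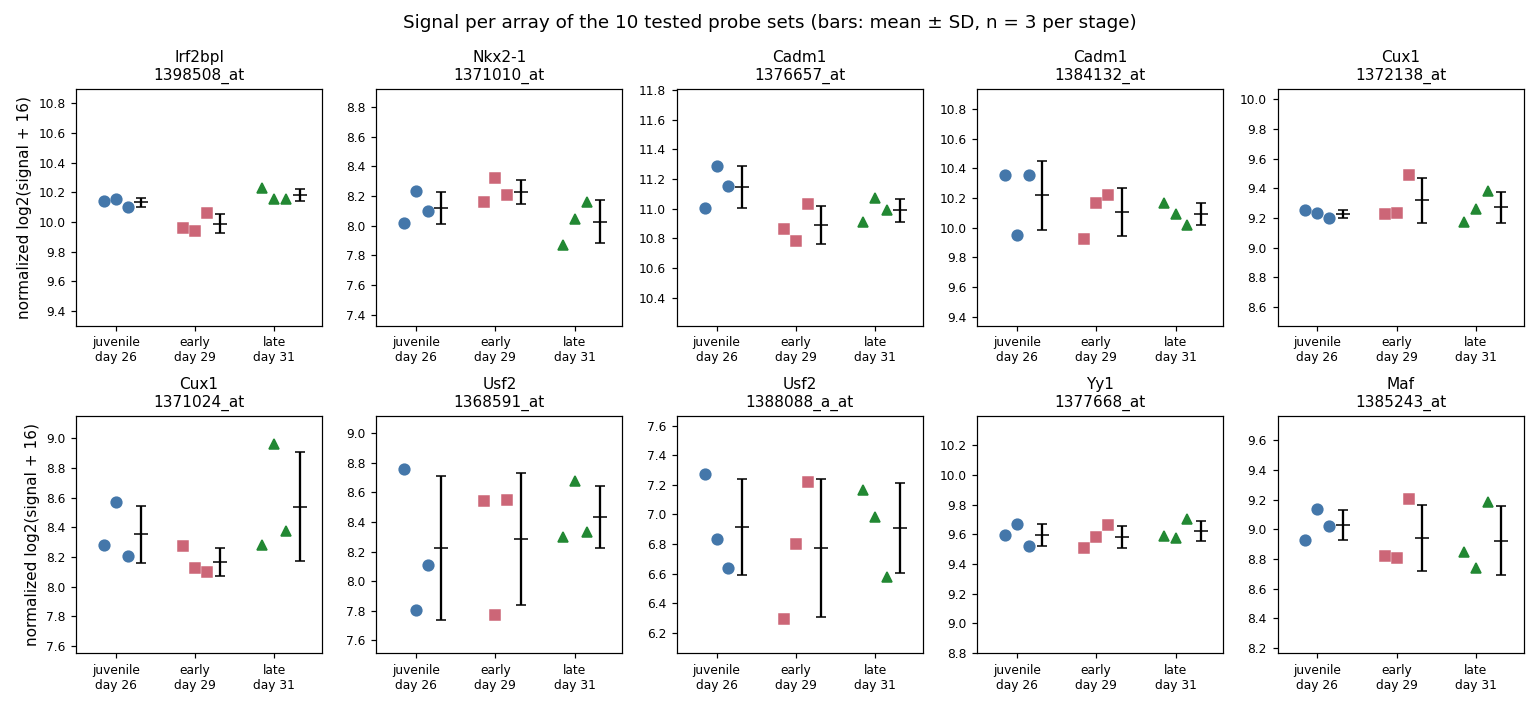
Normalized log2(signal + 16) of each of the 9 arrays for the 10 tested probe sets, by stage, with the mean ± SD (n = 3 per stage) beside the points. Every panel spans the same log2 range. Irf2bpl and Yy1 vary least, and both Usf2 probe sets vary most within a stage.

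Irf2bpl was the member with the tightest values within stages. On its bright probe set (1398508_at) the log2 level was 10.14, 10.15 and 10.10 at day 26, 9.96, 9.94 and 10.06 at day 29 and 10.23, 10.155 and 10.16 at day 31. All 3 early pubertal arrays were below every other array. The late pubertal arrays also lay above the juvenile ones, but only by the distance from 10.152 to 10.155. The early pubertal mean differed from the juvenile mean by −0.14 ± 0.07 (log2 ± SE of the fit, as for all differences below), over 3 animals per stage (limma adjusted p = 0.994). The late pubertal mean was higher than the early pubertal one by 0.19 ± 0.07, or 1.14-fold (limma adjusted p = 0.914). Late and juvenile means differed by 0.048 ± 0.070 (adjusted p = 1). The F test over the stages gave a limma p of 0.0454, with an adjusted p of 0.974. These stages are the same ones in which the summed microglial signal was highest (early) and lowest (late), the reverse of the order of Irf2bpl. Of the 6 microglial markers, 4 stood above and 2 below the juvenile mean in early pubertal animals, from 0.41 for C1qb to −0.14 for Tyrobp. All 6 were lower in late than in early pubertal animals. The thalamic marker Prkcd, which had the smallest limma p of its list, went the same way as Irf2bpl, at −0.42 ± 0.15 in early against juvenile and 0.31 ± 0.15 in late against early pubertal animals, without overlap in either (limma adjusted p = 0.994 and 0.914). Of the 5 tested markers of neighbouring brain regions, Rgs16 (−0.21 and 0.22) and Tcf7l2 (−0.17 and 0.049) had the same signs. Ppp1r1b (0.11 and −0.087) and Drd1 (0.19 and −0.15) went the other way in both comparisons. The part of these in the Irf2bpl values was not tested. At the level as deposited, where the median of all tested probe sets was itself −0.24 in early against juvenile and 0.22 in late against early pubertal animals, the Irf2bpl differences were −0.39 and 0.41. Median centring of the arrays gave −0.18 and 0.19. The other Irf2bpl probe sets lay below the signal filter, and their signal ran from 10.6 to 82.8. One of them, 1375200_at, was 19.7 in juvenile replicate 2, 22.2 in early pubertal replicate 7 and 20.2 in early pubertal replicate 10, and 57.5 to 82.8 on the other 6 arrays. Low and high arrays of that probe set thus occurred within both the juvenile and the early pubertal stage. Its differences were −0.052 in early against juvenile and 0.647 in late against early pubertal animals. On 1389942_at they were 0.224, opposite in sign to the bright probe set, and 0.071. The stages overlapped on both dim probe sets, which had no test because of the filter.

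Nkx2-1 had 1 probe set (1371010_at), and its highest and lowest arrays went the other way from those of Irf2bpl. The log2 level was 8.02, 8.24 and 8.10 at day 26, 8.16, 8.32 and 8.21 at day 29 and 7.87, 8.05 and 8.16 at day 31. Every stage overlapped every other. The early pubertal mean stood 0.11 ± 0.12 above the juvenile mean (limma adjusted p = 0.994), and the late pubertal mean stood at −0.20 ± 0.12 from the early pubertal one (limma adjusted p = 0.914). The 95% interval of the late against juvenile difference ran from −0.35 to 0.17, which leaves room for changes of up to 1.27-fold. At the level as deposited, early pubertal animals stood at −0.14 from juvenile animals and the late against early difference was 0.040. Those signs follow the shift of all probe sets at that level (medians of −0.24 and 0.22), and relative to it Nkx2-1 kept its directions. Centred on each array's median the values were 0.070 and −0.18.

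**Figure D2:**
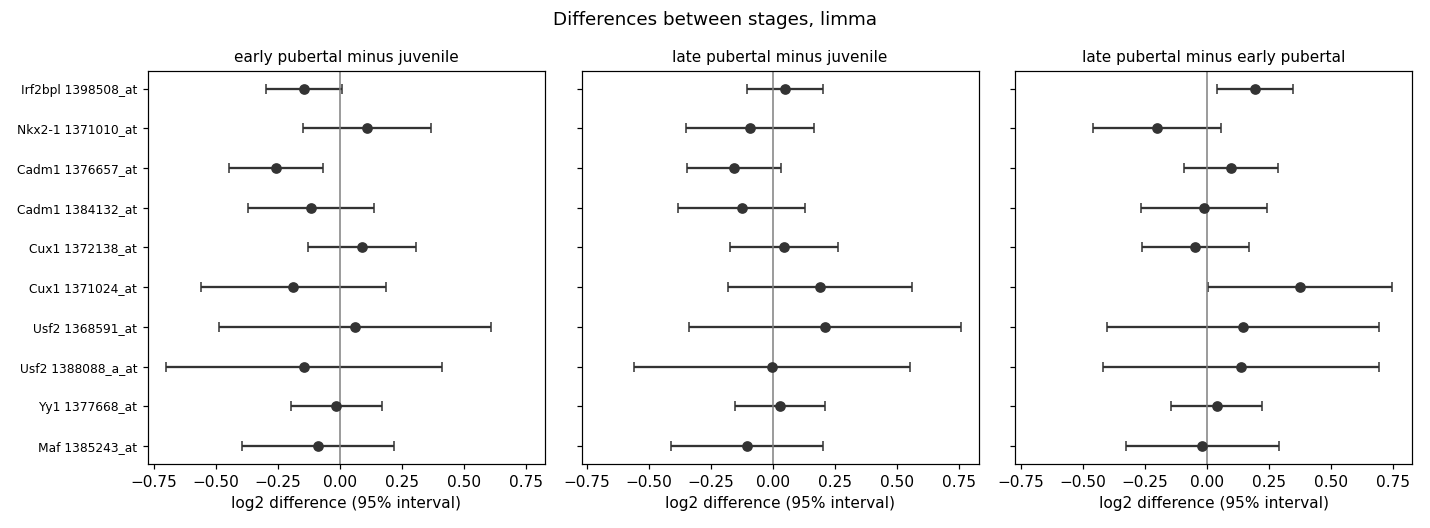
Log2 differences between stages for the 10 tested probe sets, as points with 95% intervals from limma, unadjusted for the number of probe sets. The interval excludes 0 for 1376657_at of Cadm1 in early pubertal against juvenile animals, and for Irf2bpl and 1371024_at of Cux1 in late against early pubertal animals.

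Cux1, a homeodomain protein with CUT repeats that mostly represses transcription, had 2 tested probe sets that did not follow each other. On the brighter, 1372138_at, the log2 level was 9.25, 9.23 and 9.20 at day 26, 9.23, 9.24 and 9.49 in early pubertal and 9.17, 9.26 and 9.38 in late pubertal animals. The high early pubertal value was replicate 10. On the dimmer, 1371024_at, the level was 8.28, 8.57 and 8.21 in juvenile, 8.27, 8.13 and 8.10 in early pubertal and 8.28, 8.96 and 8.38 in late pubertal animals. Late pubertal replicate 14 stood above all other arrays there, and the late arrays did not overlap the early pubertal ones. The late against early difference on this probe set was 0.38 ± 0.17 (limma adjusted p = 0.914), against −0.047 ± 0.099 on the brighter one. Without late pubertal replicate 14 the difference on 1371024_at was 0.17 against early pubertal animals and −0.022 against juvenile animals, where it was 0.19 with all arrays. The mean of both probe sets differed by 0.16 ± 0.11 between late and early pubertal animals (limma adjusted p = 0.914).

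Maf, a basic leucine zipper factor, gave a bright probe set (1385243_at) with 1 high array in each stage. Its log2 level was 8.93, 9.13 and 9.02 at day 26, 8.82, 8.81 and 9.20 at day 29 and 8.85, 8.74 and 9.19 at day 31. The stages overlapped in every comparison. Early and late pubertal means stood at −0.09 ± 0.14 and −0.10 ± 0.14 from the juvenile mean (limma adjusted p = 0.995 and 1). Juvenile replicate 2 and early pubertal replicate 10, the high Maf arrays of their stages, also had the highest summed vascular and meningeal signal of their stages, at 6093 and 7707. In late pubertal animals that signal was highest in replicate 14, which had the lowest Maf value, and its part in the Maf values was not tested. The 2 other Maf probe sets were below the filter, at signals of 7.02 to 88.4. On 1368388_at the signal was 7.02, 7.88 and 20.8 in late pubertal animals and 17.9, 33.0 and 26.1 in early pubertal animals, and after normalization those stages did not overlap.

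Yy1, a zinc finger protein that can activate or repress and that binds polycomb proteins and histone deacetylases, had the narrowest limits of the general factors. On 1377668_at the log2 level was 9.59, 9.67 and 9.52 in juvenile, 9.51, 9.58 and 9.66 in early pubertal and 9.59, 9.58 and 9.70 in late pubertal animals. The differences were −0.014 ± 0.084 for early against juvenile, 0.027 ± 0.084 for late against juvenile and 0.040 ± 0.084 for late against early pubertal animals. The 95% intervals left room for changes of at most 1.15-fold, 1.16-fold and 1.17-fold. The 3 other Yy1 probe sets lay below the filter. The nearest to it, 1375809_at at a mean log2 level of 6.23 against a limit of 6.30, had signals of 47.7, 57.6 and 29.6 in juvenile, 71.7, 75.5 and 46.9 in early pubertal and 80.2, 74.6 and 61.9 in late pubertal animals. After normalization its early pubertal arrays all lay above the juvenile ones, with a mean difference of 0.60, without a test because of the filter. Another dim Yy1 probe set, 1379111_at, went the opposite way between the same stages, also without overlap, at −0.46, and stood at 0.605 in late against early pubertal animals, again without overlap. Its signals were 1.37 to 18.3. With no filter, limma gave an adjusted p of 0.994 for both probe sets in early against juvenile animals and of 0.894 for 1379111_at in late against early pubertal animals. Over all 8 member probe sets below the filter, the stages did not overlap for 2, 0 and 2 in the 3 comparisons. The shares without overlap given above are of tested probe sets only. No share was computed for all probe sets below the filter, so these counts have no baseline.

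Usf2, a basic helix-loop-helix zipper factor that binds E-boxes, was the least precise member. On 1368591_at the log2 level was 8.76, 7.81 and 8.11 in juvenile, 8.54, 7.77 and 8.54 in early pubertal and 8.29, 8.68 and 8.33 in late pubertal animals. Low arrays, juvenile replicate 2 and early pubertal replicate 8, fell in 2 different stages. The late pubertal mean stood 0.21 ± 0.25 above the juvenile one (limma adjusted p = 1), with a 95% interval from −0.34 to 0.75 that left room for 1.69-fold. On 1388088_a_at, the dimmest member probe set tested, at a mean log2 level of 6.87 against the limit of 6.30, the values were 7.27, 6.83 and 6.64, then 6.29, 6.80 and 7.22, then 7.17, 6.98 and 6.58. All stages overlapped there too. The third Usf2 probe set had signals of 1.78 to 23.9.

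Cadm1 had the largest early pubertal difference from juvenile animals among the 10 tested probe sets. On the brighter probe set, 1376657_at, the log2 level was 11.01, 11.29 and 11.15 at day 26, 10.86, 10.78 and 11.03 at day 29 and 10.91, 11.07 and 10.99 at day 31. Early pubertal replicate 10 reached above juvenile replicate 1, so the stages overlapped by that array. The early pubertal mean was 0.84 times the juvenile mean, or −0.26 ± 0.09 in log2 (limma adjusted p = 0.994). The late pubertal mean stood at −0.16 ± 0.09 (limma adjusted p = 1). The F test over the stages gave a limma p of 0.0369 on this probe set, with an adjusted p of 0.974. On 1384132_at the level was 10.35, 9.95 and 10.35 in juvenile, 9.92, 10.17 and 10.22 in early pubertal and 10.16, 10.09 and 10.02 in late pubertal animals. Juvenile replicate 2, the highest array on 1376657_at, was the lowest juvenile array here. Differences on 1384132_at were −0.12 ± 0.12 and −0.13 ± 0.12 from juvenile animals. The mean of both probe sets differed by −0.19 ± 0.08 in early pubertal animals (limma adjusted p = 0.994). The sign of the early pubertal value on 1376657_at was the same at the level as deposited (−0.48), with median centring (−0.27) and without any single array (−0.33 to −0.18).

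For Cadm1, Cux1 and Usf2, 2 tested probe sets of the same gene could be compared. Whether both measure the same transcripts was not checked. Across the 9 arrays the Cadm1 probe sets correlated at Pearson r = 0.0134 (exact permutation p = 0.973) and Spearman rho = 0.117 (exact p = 0.776). Cux1 gave r = −0.17 (exact p = 0.654) and rho = −0.0167 (exact p = 0.982). Usf2 gave r = 0.276 (exact p = 0.466) and rho = 0.45 (exact p = 0.23). Adjusted over these 3 relations the p-values were 0.973 for each Pearson r and 0.982, 0.982 and 0.689 for rho. Without the 2 arrays farthest from the median of the brighter probe set, r was 0.654, 0.506 and 0.375. The signs of the probe sets of a gene differed for 2 of 3 genes in early pubertal against juvenile animals, for 1 of 3 in late pubertal against juvenile animals and for 2 of 3 between the pubertal stages. The mean of Cadm1 stood below the juvenile mean on both probe sets at both pubertal stages, and that of Usf2 stood above the early pubertal mean in late pubertal animals on both.

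**Figure D3:**
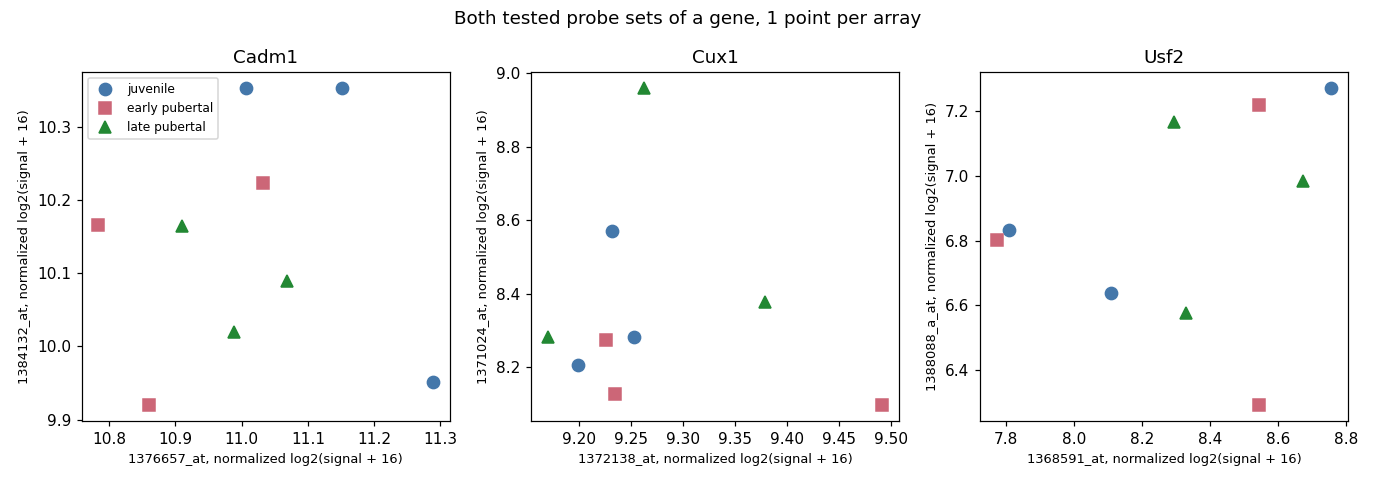
Normalized log2(signal + 16) on the dimmer against the brighter tested probe set of Cadm1, Cux1 and Usf2, with 1 point per array and stages by colour and shape. Over all 9 arrays the points do not line up along a rising diagonal for Cadm1 (r = 0.0134) or Cux1 (r = −0.17).

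The precision of these arrays sets what could have been seen. The unadjusted 95% interval of the difference held 0 for 9 of 10 member probe sets in early pubertal against juvenile animals, for 10 of 10 in late pubertal against juvenile animals and for 8 of 10 between the pubertal stages. It lay wholly within a 1.5-fold change in either direction for 8, 9 and 7 of the 10. The exceptions were the Usf2 probe sets in the first comparison, 1368591_at of Usf2 in the second, and both Usf2 probe sets and 1371024_at of Cux1 in the third.

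Genes around the hubs were then described by lists of regulators, paralogues, reported targets and partners. Counts and values are for the brightest tested probe set of each gene unless another is named. Of 8 other regulators linked to puberty, 5 were tested, and 0 passed the test in any comparison. Pou2f2, the POU factor Oct-2, differed by −0.0090 ± 0.26 in early and 0.084 ± 0.26 in late pubertal from juvenile animals. The polycomb genes Eed and Cbx7 stood at −0.054 and 0.058 in early pubertal animals, and the zinc finger genes Gatad1 and Zfp148 at −0.091 and 0.016. Of 16 paralogues 8 were tested, with 0 called, 3 higher and 5 lower in early and 2 higher and 6 lower in late pubertal than in juvenile animals. Over all 13 tested probe sets of these genes 5 stood higher and 8 lower in both comparisons. Nkx2-2, a homeodomain relative of Nkx2-1, stood at −0.28 ± 0.14 in late pubertal animals without overlap (limma adjusted p = 1). Irf2bp1 stood at 0.17 and 0.026 in early and late pubertal from juvenile animals. Usf1, the partner of Usf2, stood at 0.070 ± 0.25 and 0.052 ± 0.25 on its brighter probe set and at −0.47 ± 0.23, without overlap, and −0.056 ± 0.23 on its dimmer one (limma adjusted p = 0.994 for the early value). Cux2 stood at 0.048 and −0.040 on the brighter and at 0.12 and 0.11 on the dimmer probe set.

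Reported targets of Nkx2-1 or Irf2bpl were tested for 5 of 10 genes, with 0 called. In early pubertal animals 4 of 5 stood above the juvenile mean, with a median of 0.13, and in late pubertal animals 5 of 5 did, with a median of 0.03, against −0.001 for all tested probe sets in both. The list pools targets of both factors, whether reported as activated or repressed. These counts and medians therefore cannot be read as activity of either factor. Tac3, which encodes neurokinin B, differed by 0.36 ± 0.17 in early pubertal animals, without overlap, and by −0.35 ± 0.17 from early to late pubertal animals, again without overlap (limma adjusted p = 0.994 and 0.914). Penk, the enkephalin precursor, stood at 0.13 and 0.022 in early and late pubertal animals, the astrocyte gene Agt at 0.13 and 0.031, and the water channel gene Aqp1 at −0.10 and 0.15. Adcyap1, which encodes the peptide PACAP, stood at 0.065 and 0.085 on its brighter and at −0.073 and 0.0020 on its dimmer probe set. Gnrh1, Erbb2 and Pomc lay below the filter.

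Of the partners of Cadm1 and comparable adhesion genes, 6 of 6 tested stood below the juvenile mean in early and 5 of 6 in late pubertal animals, with 0 called and medians of −0.08 and −0.07. Over all 10 tested probe sets of these genes the counts were 7 below and 3 above in early and 8 below and 2 above in late pubertal animals, and the early direction of Mpp3, Nlgn1 and Epb41l3 differed between their probe sets. Mpp3, a scaffold gene, stood at −0.10 ± 0.12 in early pubertal animals on its brighter and at 0.41 ± 0.21 on its dimmer probe set. Epb41l3, which encodes a protein of the membrane skeleton, stood at −0.054 and 0.057 in early and −0.22 and −0.096 in late pubertal animals on the 2 probe sets. The scaffold gene Cask stood at −0.16 and −0.088. Nectin3, an adhesion molecule, stood at 0.40 ± 0.17 in late pubertal animals without overlap on its brighter probe set (limma adjusted p = 1) and at −0.17 ± 0.30 on its dimmer one. Erbb4, the receptor reported to act with Cadm1 in astrocytes, lay below the filter. All 15 listed partners of Yy1 were tested with 0 called, 7 higher and 8 lower in early pubertal than in juvenile animals and 8 higher and 7 lower in late pubertal ones, with medians of −0.02 and 0.01. Over all 21 tested probe sets of these genes 14 stood below in early and 13 in late pubertal animals. The histone deacetylase Hdac3 stood at 0.20 ± 0.09 in early pubertal animals without overlap (limma adjusted p = 0.994). Myc stood at 0.54 ± 0.26 in late pubertal animals (limma adjusted p = 1).

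**Figure D4:**
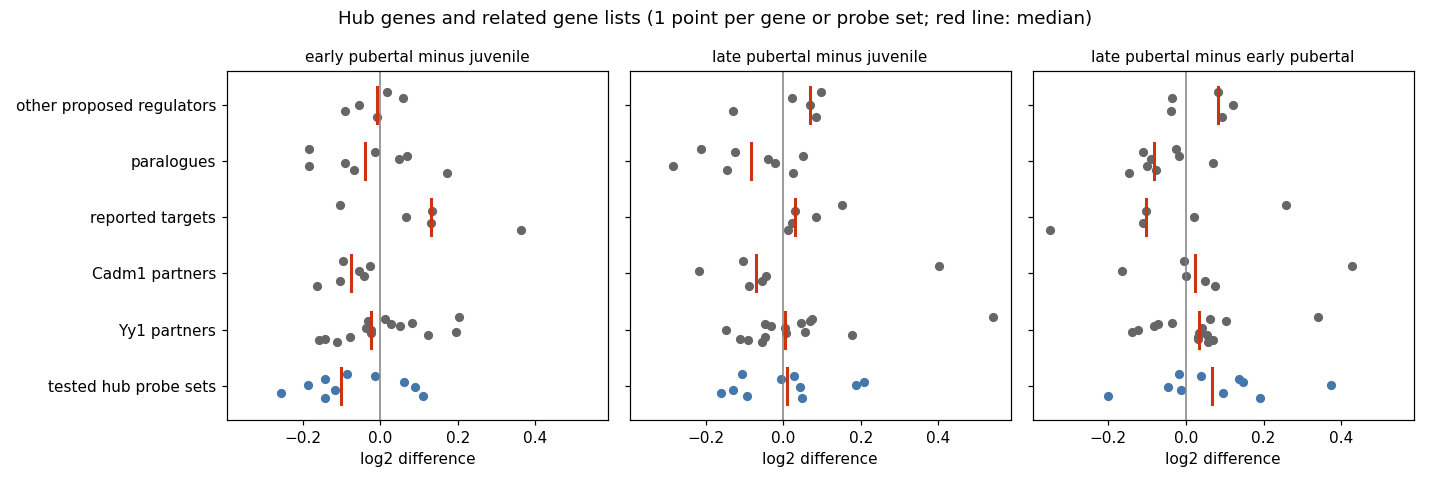
Log2 differences between stages for the tested genes of the 5 related lists (grey, brightest tested probe set per gene) and for the 10 tested hub probe sets (blue), with the median of each as a red line. All medians lie between −0.10 and 0.13, and no gene passed the adjusted test.

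Of the 10599 other genes tested, the one whose levels over the 9 arrays followed each member most closely was found by Pearson r on the brightest probe set. These are descriptions chosen as the highest of many, with no test. Irf2bpl was followed by the histone chaperone gene Hira (r = 0.952, rho = 0.85), Nkx2-1 by the transporter gene Abcb4 (r = 0.907, rho = 0.817) and Cadm1 by the actin regulator gene Phactr4 (r = 0.934, rho = 0.95). Cux1 was followed by the apelin receptor gene Aplnr (r = 0.956, rho = 0.567), where r was 0.314 without the 2 arrays farthest from the median. Usf2 was followed by Wnt1 (r = 0.903, rho = 0.767), Yy1 by the phospholipase gene Plaat3 (r = 0.938, rho = 0.817) and Maf by the matrix gene Ecm2 (r = 0.948, rho = 0.95). Without the 2 farthest arrays the other 6 values of r ran from 0.708 to 0.903.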

How the data were processed

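The deposited table holds 1 linear signal intensity for each probe set and array, computed by the authors with MAS5, per the submitters' processing notes. The target level is not given in the sources used here. Groups, days and replicate numbers came from the labels.

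Quantile normalization between arrays was applied to log2(signal + 16), because the highest array's mean, with 2% trimmed from either end, was 1.42 times the lowest. Of 31099 probe sets, 57 controls were left out. Of the others, 20826 have 1 symbol, 436 several and 9780 none here, and 20758 matched a RefSeq record (GRCr8), which changed 0 symbols. Probe sets with a mean above the 40th percentile (18625) entered limma 3.58.1 (R 4.3.3), which estimated a mean for each stage from all 9 arrays. The variance prior followed intensity and had 5.8 degrees of freedom, beside 6 residual ones. Tests were two-sided, with a Benjamini-Hochberg threshold of 0.05. The script was tested on simulated data with independent normal noise and no array effects. That was a check of the code and not of the results. Summed marker signals are normalized. Correlations used exact two-sided permutation. The number of arrays limits the precision.

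By the rule set for names, these could be all members, genes of the regulator, paralogue and target lists, up to 3 per other list by smallest unadjusted p, and the 2 closest patterns per member, of which the closer is given. Outside that rule, Pmch, Avp, Oxt, Hcrt, Gh1, Prl and Emx1 served the tissue check, and Mpp3, Nlgn1, Erbb4, Vim, Ppp1r1b and Drd1 were named. All of these were chosen after their values were seen. Members and lists were chosen with earlier results of these data known, and the comparison of probe sets of a gene after their values were seen. Alternatives were constants of 1 and 64, the deposited level, median centring, no filter or the 60th percentile, other priors, array weights, the 6 arrays compared, the brightest probe set of each gene, averaged probe sets of a gene, and leaving out each array.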

Additional observations from a re-analysis of the deposited data

How the results depend on the processing

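No tested member probe set passed at an adjusted p under 0.05 in limma under any alternative run. Counts over all probe sets rose from 0 only at the level as deposited (10 in early and 1 in late pubertal against juvenile, 21 in late against early pubertal animals, 16 by the F test), with array weights (1 in late against juvenile), and between 0 and 1 on leaving out arrays, with 1 in late against juvenile and 1 by the F test without juvenile replicate 2. Of 600 recomputed differences of tested member probe sets, 39 turned sign, as did 15 of 456 of those below the filter, which have no test in the chosen setting. At the level as deposited, early against juvenile values were −0.14 for Nkx2-1, −0.17 for 1372138_at of Cux1 and −0.19 for 1368591_at of Usf2, late against juvenile −0.00973 for Yy1, and late against early 0.040 for Nkx2-1, 0.21 for 1384132_at of Cadm1, 0.18 for 1372138_at of Cux1 and 0.21 for Maf, beside the shift of all probe sets that this level holds. Median centring gave −0.022 for Yy1 in late against juvenile animals. Array weights gave 0.035 for Yy1 and 0.00712 for Maf in early, and 0.016 for 1388088_a_at of Usf2 in late against juvenile animals. Averaging the probe sets of a gene gave −0.049 for Cux1 and −0.040 for Usf2 in early against juvenile and 0.16 for Cux1 in late against early pubertal animals, since the probe sets differ in sign.

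Leaving out 1 array at a time gave, in early against juvenile animals, −0.15 to 0.33 for 1368591_at and −0.37 to 0.097 for 1388088_a_at of Usf2, and −0.052 to 0.025 for Yy1. In late against juvenile animals it gave −0.000471 to 0.47 and −0.14 to 0.17 for the Usf2 probe sets in that order, −0.013 to 0.065 for Yy1, −0.011 to 0.093 for 1372138_at and −0.022 to 0.32 for 1371024_at of Cux1. In late against early pubertal animals it gave −0.11 to 0.275 and −0.10 to 0.36 for the Usf2 probe sets, −0.10 to 0.047 for 1384132_at of Cadm1, −0.10 to 0.040 for 1372138_at of Cux1 and −0.15 to 0.11 for Maf. The causes were not tested. No paired analysis was possible because the stages share no replicate number. The number of arrays and, for 8 member probe sets, a signal below the filter limit what can be seen.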
